A study of Mus musculus with 11 samples.

Results

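Small RNAs of wild-type (WT) mouse oocytes were set against those of WT mouse sperm, as 1 oocyte library and 2 sperm libraries out of the 11 libraries in the series. The libraries were chosen by their labels, and all 2304 listed small RNAs, 1592 mature miRNAs and 712 endo-siRNAs, were taken. The other libraries are from sperm of males whose germ cells lack Dicer or Drosha, and from 2PN (pronuclear) embryos made by injecting WT, Dicer cKO or Drosha cKO sperm into oocytes. All 3 compared libraries come, per the labels, from adult WT animals of the C57BL/6 strain. The sperm were taken from the cauda epididymis and pelleted from the medium, so cells of the epididymal duct, blood or stroma may travel with them. The oocytes were taken from the oviducts of females after superovulation. The sources used here do not give how many oocytes were pooled or whether their cumulus cells were removed. The series text speaks of duplicates, whereas the labels name 1 oocyte library. The oocyte values therefore have no replicate error, no test between the groups was made, and all intervals are exact 95% intervals (Clopper-Pearson for a share) that cover counting error only. The labels do not say whether the sperm libraries came from separate males.

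A miRNA is cut from a hairpin in its transcript by Drosha and then from the short hairpin by Dicer, and either arm, named 5p or 3p, can be loaded into an Argonaute protein. The loaded strand finds target messages mainly through its seed, the bases 2 to 8, so members of a family that share a seed can share targets. Fully grown mouse oocytes are known for weak miRNA activity and for abundant endo-siRNAs, which need Dicer and not Drosha. Mature sperm are transcriptionally silent and carry small RNAs left from spermatogenesis or taken up in the epididymis.

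Listed reads numbered 5530 in the oocyte library, 73377 in sperm 1 and 278890 in sperm 2. They made up 0.489%, 2.16% and 10.1% of the number by which the authors divided each library. The sources used here do not give what that number counts. In the oocyte, 1 read is 0.0181% of the listed reads, and a count of 0 is taken to allow up to 3 reads, a share of 0.0542%. The exact 2-sided interval of such a count reaches 0.0667%. Shares of listed reads are used below unless another scale is named. A share says nothing of the amount of RNA per cell.

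The sequences that carry the comparison are those of 4 seed families in which the abundant member differed between the libraries, of miRNAs abundant in the oocyte and of miRNAs abundant in sperm. They are mature miRNA sequences of RefSeq on GRCm38.p6, 5′ to 3′, with the seed in capitals. The first set is the miR-30, miR-15/16, let-7 and miR-34 and miR-449 families. In each family the member abundant in the oocyte is given before its relatives.
miR-30c-5p: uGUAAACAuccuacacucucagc
miR-30a-5p: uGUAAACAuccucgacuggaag
miR-30e-5p: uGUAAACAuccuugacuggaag
miR-195a-5p: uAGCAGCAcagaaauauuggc
miR-16-5p: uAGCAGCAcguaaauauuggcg
miR-15a-5p: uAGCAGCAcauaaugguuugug
miR-15b-5p: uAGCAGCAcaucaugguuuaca
let-7f-5p: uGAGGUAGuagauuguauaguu
let-7a-5p: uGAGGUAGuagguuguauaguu
miR-34a-5p: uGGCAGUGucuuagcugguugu
miR-34b-5p: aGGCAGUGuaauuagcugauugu
miR-449a-5p: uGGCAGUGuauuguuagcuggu

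The members of each family share all 7 seed bases and differ after them. Aligned from their 5′ ends, miR-195a-5p and miR-16-5p differ at 2 of 21 positions, and let-7f-5p and let-7a-5p at 1 of 22. Between miR-30c-5p and miR-30a-5p 5 of 22 positions differ, and between miR-34a-5p and miR-34b-5p 11 of 22, where a shift of the bases by insertion counts at every later position. The sources used here do not give how many mismatches the authors' alignment allowed. Reads may therefore have been split between members as close as let-7f-5p and let-7a-5p.

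The second set holds other miRNAs that were abundant in the oocyte, with the neighbours of miR-183-5p and miR-376b-3p and the 5p arm of miR-7a as references for the results on clusters and arms.
miR-183-5p: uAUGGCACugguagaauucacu
miR-96-5p: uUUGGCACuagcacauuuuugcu
miR-182-5p: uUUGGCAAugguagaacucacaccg
miR-23a-3p: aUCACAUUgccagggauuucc
miR-7a-1-3p: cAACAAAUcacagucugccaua
miR-7a-5p: uGGAAGACuagugauuuuguugu
miR-376b-3p: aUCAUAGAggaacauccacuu
miR-376a-3p: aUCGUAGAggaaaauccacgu
miR-192-5p: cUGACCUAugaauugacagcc
miR-140-3p: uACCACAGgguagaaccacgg
miR-155-5p: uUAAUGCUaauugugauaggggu
miR-294-3p: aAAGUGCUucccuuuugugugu
miR-293-3p: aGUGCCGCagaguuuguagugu
miR-290a-5p: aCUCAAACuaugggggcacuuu

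The third set holds miRNAs that were called higher in sperm and had at most 4 reads in the oocyte.
miR-19b-3p: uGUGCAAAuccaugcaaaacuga
miR-19a-3p: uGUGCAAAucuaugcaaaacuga
miR-18a-5p: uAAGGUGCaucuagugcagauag
miR-191-5p: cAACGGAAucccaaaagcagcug
miR-743a-3p: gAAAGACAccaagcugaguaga

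The oocyte library was concentrated in a few miRNAs. miR-30c-5p and miR-183-5p alone made up 52.8% of its listed reads, whereas 11 and 9 features were needed to reach 50% in sperm 1 and sperm 2. The 10 most abundant features held 77.7% in the oocyte and 47.4% and 53.2% in sperm. None of the 10 most abundant oocyte features was among the 10 of sperm (0 shared). In the oocyte 299 features had a read, 293 of them miRNAs, and at the same depth 281.1 and 254.1 miRNAs would be expected to have a read in sperm 1 and sperm 2. The number of miRNAs detected was thus similar at equal depth, and their shares were not.

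For calls, a feature was taken as measured where the oocyte count, or the count expected at the oocyte's depth from the mean sperm share, was at least 10. This held for 97 features, 96 miRNAs and 1 endo-siRNA, of which 37 passed through their oocyte reads. A measured feature was called where its share lay at least 4-fold beyond the nearer of both sperm libraries, with the library that would be lower raised to 3 reads. Of the 97, 25 (25.8%) were higher in the oocyte, 45 (46.4%) were higher in sperm and 27 were neither. The same rule between the sperm libraries called 2 features higher in sperm 1 (2.06%), miR-296-5p and miR-99a-5p, and 0 higher in sperm 2. A feature that passed only through the library where it was abundant had to lean that way, though not by 4-fold. These counts therefore describe the measured features and no others.

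The split of the calls moved with the scaling. Of all calls, 35.7% were higher in the oocyte on listed reads, 21.7% with TMM factors (18 against 65), 14.3% on the authors' RPM (11 against 66) and 48.3% with the 5 most abundant features left out of the total (28 against 30). Relative to listed reads these scalings moved the median log2 ratio of the 97 features by -2.06, -3.74 and 1.08. Under every scaling tried, 11 features were higher in the oocyte: miR-183-5p, miR-122-5p, miR-376b-3p, miR-155-5p, miR-292a-3p, miR-290a-5p, miR-294-5p, miR-344d-3p, miR-3472, let-7b-3p and miR-15a-3p. Likewise 30 features were higher in sperm under all of them.

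**Figure D1:**
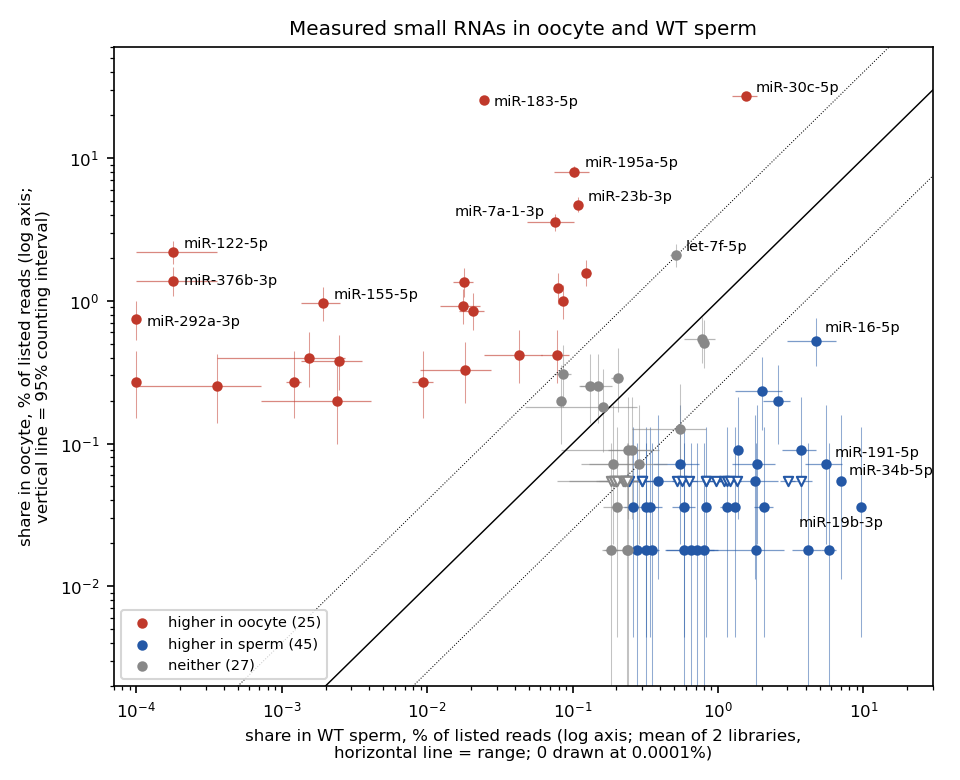
Share of listed reads in the oocyte (vertical, log axis, with 95% counting intervals) against the mean share in the 2 WT sperm libraries (horizontal, log axis, line = range of the libraries, 0 drawn at 0.0001%) for the 97 measured features, coloured by call. The solid line marks equal shares, the dotted lines a 4-fold difference and the open triangles 0 oocyte reads, drawn at 3 reads. miR-183-5p and miR-30c-5p stand at the top with 25.5% and 27.3%, and the sperm-rich miRNAs lie at the bottom right at a few oocyte reads.

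The features called higher in the oocyte held 84.5% of its reads and 2.13% and 2.60% of the reads of sperm 1 and sperm 2. Those called higher in sperm held 2.03% of the oocyte's reads and 78.5% and 81.9% of the sperm reads. Of the latter 45, 15 had 0 reads in the oocyte, 22 had 1 to 3 and 8 had more. Over the 97 measured features, the log2 shares of the sperm libraries correlated with Pearson's r = 0.965, and those of the oocyte with sperm 1 and sperm 2 with r = -0.49 and -0.46. The features were selected for a high share in either cell, which by itself lowers the last 2 values, so they are given as a description only.

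miR-30c-5p, a member of the widely expressed miR-30 family, was the most abundant oocyte feature. It had 1510 reads in the oocyte, 920 in sperm 1 and 5139 in sperm 2, which are 27.3% (26.1 to 28.5), 1.25% and 1.84% of listed reads. Its share in the oocyte was 21.8-fold (20.1 to 23.7) that of sperm 1 and 14.8-fold (13.98 to 15.7) that of sperm 2. Its call depended on the scaling: with TMM factors it fell short of the 4-fold rule (log2 ratio 1.98), and in the authors' RPM its oocyte value of 1335 lay between those of sperm 1 (270.3) and sperm 2 (1853). The mature sequence is encoded at chr4:120769584-120769606 on the minus strand, within the gene Nfyc, and at chr1:23291714-23291736 on the plus strand, so its reads cannot be assigned to 1 locus.

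The other members of the miR-30 family went the opposite way. miR-30b-5p had 5, 2006 and 13070 reads in the oocyte, sperm 1 and sperm 2, miR-30d-5p 4, 1803 and 3495, and miR-30a-5p 1, 685 and 1887. All 3 were called higher in sperm, by 30.2-fold and 51.8-fold for miR-30b-5p in sperm 1 and sperm 2. miR-30e-5p, whose hairpin lies beside that of Mir30c-1 within Nfyc, had 1, 151 and 457 reads and was not called. miR-30c-5p therefore made up 99.2% of the family's reads in the oocyte and 16.3% and 21.0% in sperm, and without it the family's summed share was 0.217% in the oocyte against 6.42% and 6.91%.

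The second most abundant oocyte feature, miR-183-5p, was nearly missing from sperm. This miRNA, best known from sensory cells, comes from a cluster with miR-96 and miR-182 at chr6:30165923-30169732, within the RefSeq non-coding gene Mirc35hg. It had 1412 reads in the oocyte (25.5%, 24.4 to 26.7), 18 in sperm 1 and 68 in sperm 2, or 0.0245% and 0.0244%. The oocyte share was 1041-fold (656 to 1761) and 1047-fold (821 to 1356) that of sperm 1 and sperm 2, and it was still called on the authors' RPM (log2 ratio 6.39).

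Its neighbours in the cluster were far less abundant in the oocyte. miR-182-5p had 6 reads in the oocyte, 44 in sperm 1 and 58 in sperm 2, and miR-96-5p had 1, 13 and 60, so neither was measured. By share miR-182-5p was above both sperm libraries, at 0.108% against 0.060% and 0.0208%. The share of miR-96-5p, 0.0181%, lay between the 0.0177% of sperm 1 and the 0.0215% of sperm 2. Of the cluster's reads, miR-183-5p held 99.5% in the oocyte but 24% and 36.0% in sperm. Without it, the cluster's share was 0.127% in the oocyte and 0.0777% and 0.0434% in sperm.

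miR-195a-5p was the third most abundant oocyte feature. It had 445, 55 and 361 reads in the oocyte, sperm 1 and sperm 2, a share of 8.05% (7.34 to 8.80) against 0.075% and 0.129%. That is 107.4-fold (81.0 to 144.8) and 62.2-fold (54.0 to 71.6) the sperm shares. Its measured relatives with the same seed, known as regulators of cell-cycle genes, were all called higher in sperm. On the authors' RPM the log2 ratio of miR-195a-5p was 2.43, and it lost its call. miR-16-5p had 29, 2174 and 18087 reads, miR-15b-5p 1, 2351 and 14274, and miR-15a-5p 13, 960 and 7626.

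Summed over the miR-15 and miR-16 family, the shares of listed reads overlapped between the cells: 9.17% in the oocyte lay between 7.69% in sperm 1 and 14.7% in sperm 2. The log2 ratio of the sums to mean sperm was -0.29 on listed reads, -2.49 with TMM factors and -4.20 on the authors' RPM. Within the family, miR-195a-5p held 87.8% of the reads in the oocyte and 0.974% and 0.879% in sperm. The calls of miR-16-5p and miR-15a-5p were lost when the 5 most abundant features were left out of the total.

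**Figure D2:**
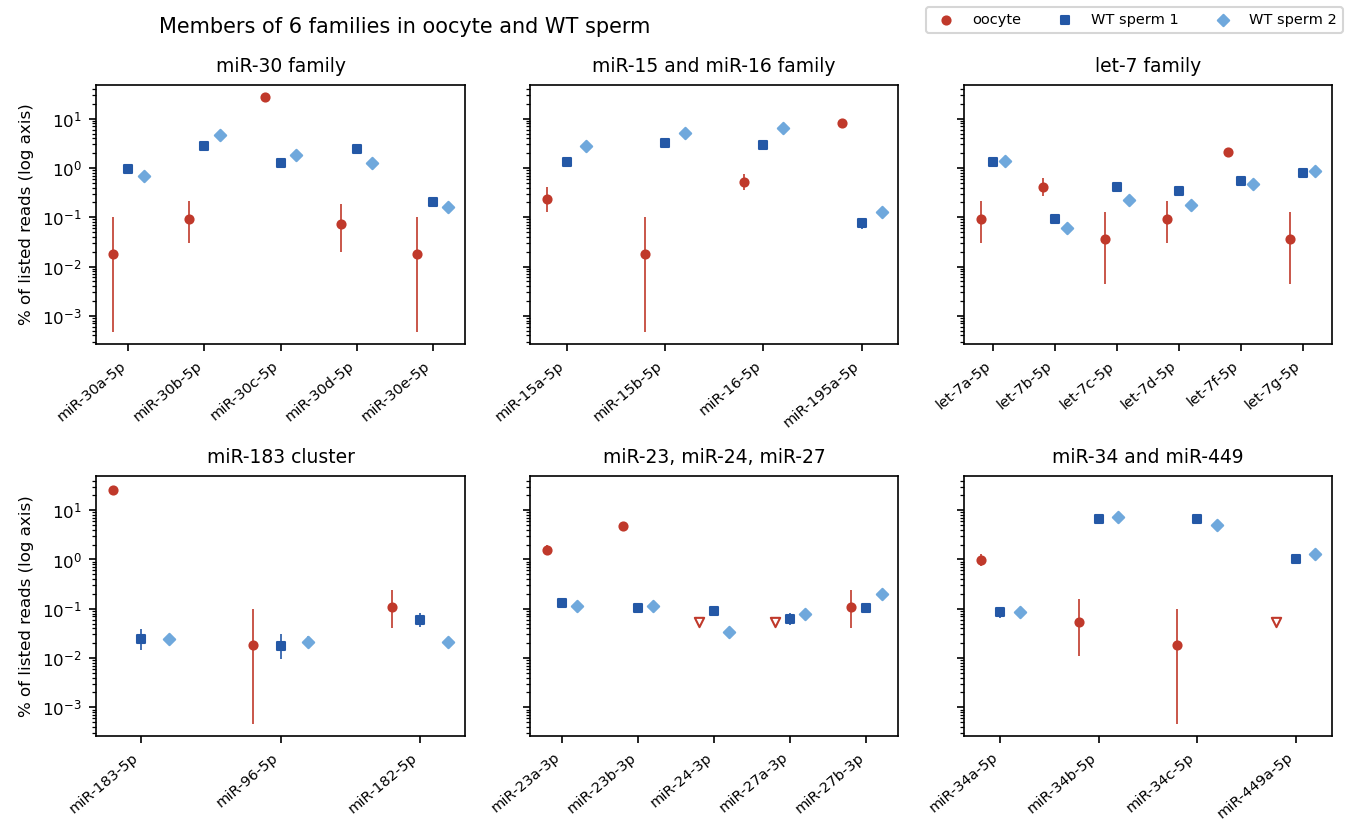
Share of listed reads (log axis) of single members of 6 families or clusters in the oocyte and the 2 WT sperm libraries, with 95% counting intervals and open triangles for 0 reads, drawn at 3 reads. In each panel 1 or 2 members stand above sperm (miR-30c-5p, miR-195a-5p, let-7f-5p and let-7b-5p, miR-183-5p and miR-182-5p, miR-23a-3p and miR-23b-3p, miR-34a-5p) while most relatives lie below or level with it. The value of miR-182-5p rests on 6 oocyte reads.

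The let-7 family, whose members restrain growth and stemness genes, also had nearly equal sums on listed reads, 3.47% (3.01 to 3.99) in the oocyte and 3.75% and 3.40% in sperm, whereas on the authors' RPM its log2 ratio was -3.64. let-7f-5p had 116, 406 and 1301 reads and made up 2.10%, 0.553% and 0.466%, a ratio of 3.79 to sperm 1 and of 4.50 to sperm 2, just short of the call, and its log2 ratio was -1.52 on the authors' RPM. let-7b-5p had 23, 69 and 170 reads and was called higher in the oocyte on listed reads, but its log2 ratio turned to -1.004 on the authors' RPM. let-7a-5p (5, 981 and 3880 reads), let-7g-5p (2, 588 and 2396) and let-7c-5p (2, 301 and 634) were called higher in sperm. Of 7 measured members, 2 were higher in the oocyte, 3 higher in sperm and 2 neither, beside 25.8% and 46.4% higher in the oocyte and in sperm over all measured features.

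In the miR-34 and miR-449 family, known from spermatocytes, spermatids and ciliated cells, the sum was low in the oocyte (1.28% against 18.2% and 16.3%) and 1 member went against it. miR-34a-5p, the member induced by p53 in many tissues, had 55, 62 and 241 reads and was 11.8-fold (8.04 to 17.2) and 11.5-fold (8.43 to 15.5) above sperm 1 and sperm 2 in share, but its log2 ratio was -0.11 on the authors' RPM. miR-34b-5p had 3, 4901 and 20243 reads, miR-34c-5p 1, 4769 and 14174, and miR-449a-5p 0, 739 and 3620. These are 6.68% and 7.26% of the reads of sperm 1 and sperm 2 for miR-34b-5p, and 6.50% and 5.08% for miR-34c-5p. The sperm share of miR-449a-5p was at least 18.6-fold and 23.9-fold higher than that of the oocyte. Of the 6 measured members, 5 were called higher in sperm, beside 46.4% of all measured features. These 5 passed through their sperm shares, so the count is no support.

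The matched miRNAs were also grouped by seed. Sequences were found for 1333 of the 1592 miRNAs, which carried 90.4% of the miRNA reads in the oocyte and 83.1% and 81.8% in sperm. Among 20 seeds with at least 2 matched members and 10 oocyte reads, the leading member differed between oocyte and sperm in 8. In 11 of the 20, 1 member held at least 90% of the seed's oocyte reads. For several of these, such as the seeds of miR-192-5p, miR-140-3p and miR-25-3p, only 1 member had any oocyte read, which fixes the value at 100%. No such count was made for sperm, so it is not a trait of the oocyte alone. Some sperm leaders rest on few reads, as for the seed of miR-290a-5p with 0 reads in sperm 1 and 9 in sperm 2. The seed of miR-195a-5p and miR-16-5p made up 8.82% of the oocyte's reads and 7.59% and 14.5% of the sperm reads, and that of miR-30c-5p 27.4% against 2.39% and 2.68%. miR-30b-5p and miR-30d-5p have no sequence in the table and are not in the last sums.

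miR-23b-3p and miR-23a-3p come from paired clusters that also encode miR-24 and miR-27, known from endothelium and muscle. miR-23b-3p had 260 reads in the oocyte, 76 in sperm 1 and 315 in sperm 2, 45.4-fold (35.03 to 59.4) and 41.6-fold (35.2 to 49.2) by share. miR-23a-3p, at chr8:84208563-84208583 on the plus strand, made up 1.57% (1.26 to 1.94) of the oocyte's reads (87 reads) and 0.134% and 0.115% of the sperm reads, 11.8-fold and 13.6-fold.

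The cluster mates of miR-23 were too few in reads to be measured. miR-27b-3p had 6, 75 and 552 reads, a share of 0.108% against 0.102% and 0.198%. miR-27a-3p had 0, 46 and 219 reads and miR-24-3p 0, 67 and 94, so that no oocyte level can be given for them. The summed share of the clusters was 6.38% against 0.507% and 0.546%, and its log2 ratio turned slightly negative, to -0.08, on the authors' RPM.

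miR-7a-1-3p is the 3p arm of a hairpin within the gene Hnrnpk. It had 197, 75 and 136 reads in the oocyte, sperm 1 and sperm 2, a share of 3.56% (3.09 to 4.09) against 0.102% and 0.0488%, or 34.9-fold (26.6 to 46.1) and 73.1-fold (58.4 to 91.6). miR-7a-5p, the arm that is usually the guide and is abundant in brain and endocrine cells, had 14, 82 and 517 reads and was neither. The 3p arm thus made up 93.4% (89.1 to 96.3) of the reads of both arms in the oocyte, 47.8% in sperm 1 and 20.8% in sperm 2. miR-7a-5p is also encoded by Mir7-2, whereas miR-7a-1-3p comes from Mir7-1 alone, so the sum of the 5p arm may include another hairpin. The hairpin at chr13:58392779-58392886, minus strand, is shown with both arms in capitals, first 5p and then 3p.
Mir7-1: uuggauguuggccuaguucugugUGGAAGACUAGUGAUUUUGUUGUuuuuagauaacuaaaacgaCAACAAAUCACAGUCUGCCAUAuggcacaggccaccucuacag

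Other hairpins also gave more 3p arm in the oocyte. Of 29 pairs of arms with at least 10 reads in each of the 3 libraries, the share of the 3p arm was above both sperm libraries beyond the counting intervals in 7, below in 0 and overlapping in 22. Besides miR-7a these were miR-140, miR-34b, miR-15a, let-7a-1, let-7b and let-7d. Pairs with few 5p reads in the oocyte, such as let-7a-1, let-7d and miR-34b, reached 10 reads only with their 3p reads. Many pairs, such as those of miR-183 and miR-26a, had almost no 3p reads in sperm and could hardly fall below. Some 5p arms, such as that of miR-30c, entered with the 3p arms of several hairpins. The counts of 7 and 0 are therefore no support for a general shift. In 4 of them, miR-7a, miR-34b, miR-15a and let-7d, the arm with more reads in the oocyte was not the one with more reads in both sperm libraries. The counting intervals settle none of these 4 changes. An equal split of the arms lay within the oocyte intervals of miR-34b, miR-15a and let-7d (23.4 to 83.3). For miR-7a it lay within the interval of sperm 1 (39.7 to 55.9).

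miR-15a gave one of the sharpest changes in the share of an arm. Its 3p arm had 15 reads in the oocyte, 1 in sperm 1 and 3 in sperm 2, while its 5p arm had 13, 960 and 7626, so that 3p was 53.6% (33.9 to 72.5) of both arms in the oocyte and 0.104% and 0.0393% in sperm. miR-34b-3p had 11, 2306 and 5696 reads, and with miR-34b-5p at 3 reads the 3p share was 78.6% (49.2 to 95.3) against 32.0% and 21.96%. For miR-140, a cartilage miRNA encoded within Wwp2, the 3p arm had 68 reads and the 5p arm 0, against 67.4% and 69.2% 3p in sperm.

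The let-7 arms rest on fewer oocyte reads. let-7b-3p had 21, 1 and 10 reads and its share of both arms was 47.7% (32.5 to 63.3) in the oocyte against 1.43% and 5.56%. For let-7a-1 5 of 10 oocyte reads were 3p, and for let-7d 6 of 11. In the WT 2PN library the 3p share was 92.1% for miR-7a, 100% for miR-140, 90.0% for miR-34b, 50% for miR-15a and 47.4% for let-7b, but 7.14% for let-7a-1 and 20% for let-7d. In the Dicer cKO and Drosha cKO embryo libraries it was 59.5% and 12.4% for let-7b, 96.7% and 78.8% for miR-7a, and 33.3% and 40% for miR-15a. miR-140 and miR-34b were at 100% in both, let-7a-1 at 20% and 8.33%, and let-7d at 60% and 16.7%. Thus the 3p share of let-7b varied widely between the embryo libraries.

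**Figure D3:**
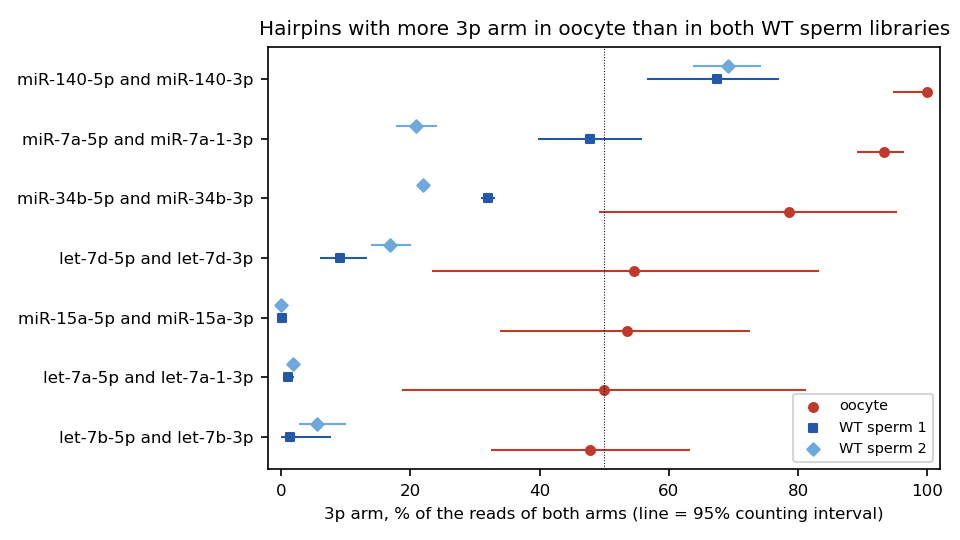
Share of the 3p arm among the reads of both arms (percent, with 95% counting intervals) for the 7 hairpins whose oocyte interval lies above those of both WT sperm libraries. miR-7a reaches 93.4% in the oocyte against 47.8% and 20.8%, while the intervals for let-7a-1 and let-7d are wide.

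Oocyte-rich miRNAs nearly missing from sperm included several named for other tissues. miR-122-5p, the abundant miRNA of hepatocytes, had 121 reads in the oocyte (2.19%, 1.82 to 2.61), 0 in sperm 1 and 1 in sperm 2. This is at least 535-fold higher than in sperm 1, and 6102-fold (1075 to 242995) by the single read of sperm 2. miR-192-5p, at chr19:6264857-6264877 and known from liver, kidney and gut, had 75, 11 and 58 reads, 90.5-fold (47.8 to 189) and 65.2-fold (45.7 to 93.5) by share. It kept its call with TMM factors and lost it on the authors' RPM.

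miR-155-5p, a miRNA of activated lymphocytes and macrophages, had 53, 1 and 7 reads, a share of 0.958% (0.719 to 1.25) in the oocyte. The ratio was 703 (121 to 28294) to sperm 1 and 382 (173 to 996) to sperm 2. miR-344d-3p had 15 reads in the oocyte and 0 in both sperm libraries, at least 66.3-fold and 252-fold higher. miR-3472 had 22, 2 and 1 reads, miR-181a-5p, known from lymphocyte development, 23, 45 and 69, and miR-146b-5p, induced in inflammation, 15, 8 and 22. miR-5100 had 18, 20 and 25. By share miR-181a-5p made up 0.416% against 0.0613% and 0.0247%, and miR-5100 0.325% against 0.0273% and 0.00896%, so neither was nearly missing from sperm. Both lost their calls with TMM factors (log2 ratios 1.35 and 2.27) and on the authors' RPM (0.094 and 1.10). miR-146b-5p lost its call on the RPM alone (1.37).

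miR-376b-3p led the oocyte reads of the Dlk1-Dio3 cluster, the large imprinted miRNA cluster that is expressed from the maternal chromosome. It had 76 reads in the oocyte (1.37%, 1.08 to 1.72), 0 in sperm 1 and 1 in sperm 2, at least 336-fold higher than in sperm 1. miR-376a-3p, whose hairpin lies within the same stretch of chr12 and whose seed differs, was not measured, with 6, 3 and 6 reads. Its share was 26.5-fold (5.67 to 164) and 50.4-fold (13.5 to 189) those of sperm 1 and sperm 2. Of the 78 listed members of the cluster 12 had an oocyte read and 1 was measured, and miR-376b-3p made up 76.0% of the cluster's oocyte reads. The cluster's summed share was 1.81% against 0.184% and 0.184%, and without miR-376b-3p it was 0.434% against 0.184% and 0.183%. On all members the log2 ratio turned to -0.34 on the authors' RPM.

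In the cluster of miR-290 to miR-295, which is known from embryonic stem cells and the early embryo, the summed share was higher in the oocyte than in sperm. It was 3.42% (2.95 to 3.93) in the oocyte against 0.0668% and 0.0416%, 51.2-fold (37.2 to 71.6) and 82.2-fold (64.9 to 104). Of 17 listed members, 14 had an oocyte read and 5 were measured. These 5 passed through their oocyte reads alone, so that an oocyte share above the mean sperm share follows from the filter. The filter does not force a 4-fold call, but the count is no support.

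miR-294-3p, which carries the AAGUGCU seed of the stem-cell miRNAs, had 51 reads in the oocyte, 17 in sperm 1 and 34 in sperm 2. miR-293-3p had 47, 18 and 46, and miR-292a-3p 41, 0 and 0, at least 181-fold and 689-fold higher than in sperm 1 and sperm 2. The cluster also has a separate entry named miR-292-3p, so these bounds hold for the entry miR-292a-3p alone. The sources used here do not give how reads were divided between the entries. miR-290a-5p had 14, 0 and 2 reads and miR-294-5p 11, 3 and 2. miR-291a-3p, a further member, had only 2, 1 and 2.

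**Figure D4:**
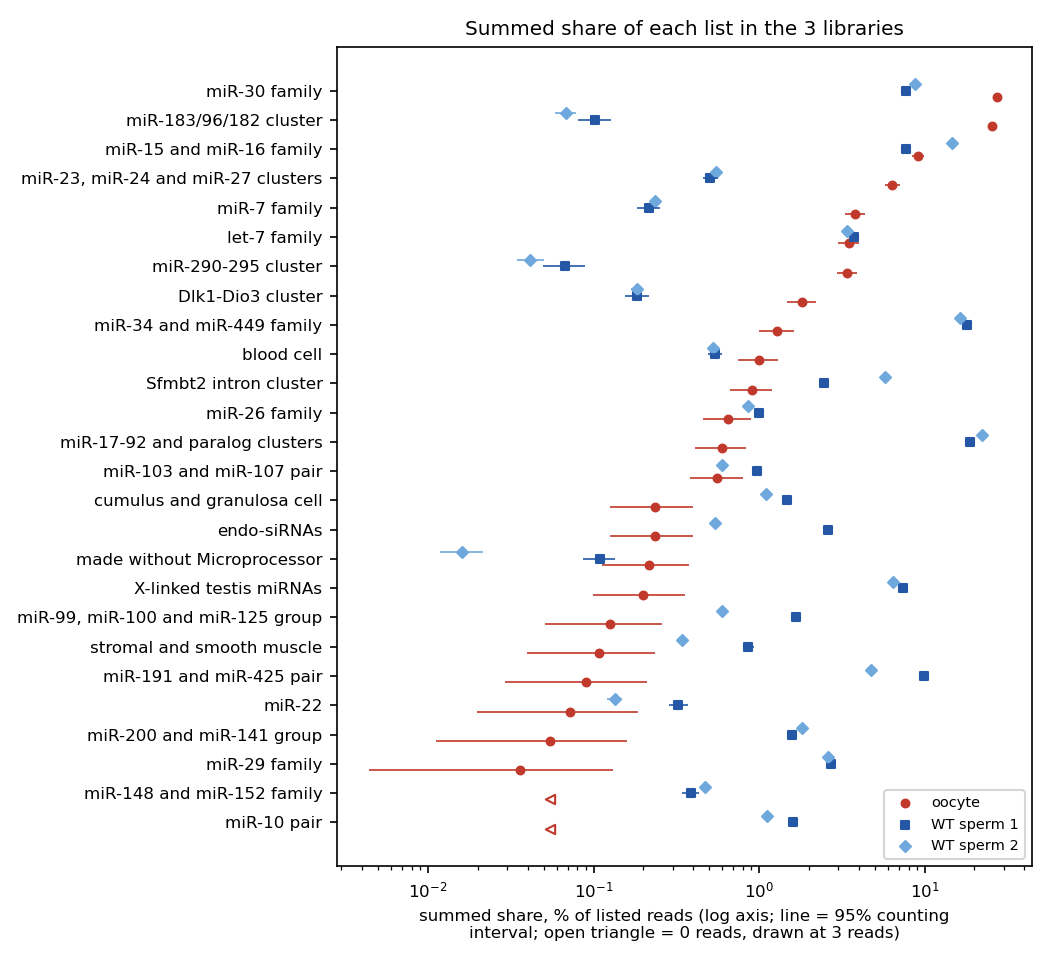
Summed share of listed reads (log axis) of 26 lists of small RNAs in the oocyte and the 2 WT sperm libraries, with 95% counting intervals and open triangles for 0 reads, drawn at 3 reads. The clusters of miR-183 and of miR-290 to miR-295 lie far above sperm, the let-7 and miR-15/16 families overlap with it, and the lists of miR-34 and miR-449, miR-17-92, X-linked miRNAs and miR-191 with miR-425 lie far below.

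Among the sperm-rich groups, the miR-17-92 cluster and its paralogs, known from proliferating cells, had the highest sum. Its share was 0.597% (0.411 to 0.837) in the oocyte and 18.7% and 22.3% in sperm. miR-19b-3p, the most abundant miRNA of both sperm libraries, had 2 reads in the oocyte, 6704 in sperm 1 and 28224 in sperm 2, or 0.0362%, 9.14% and 10.1%. The sperm share was 253-fold (69.9 to 2086) and 280-fold (77.5 to 2311) that of the oocyte.

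Within the same clusters miR-19a-3p (0, 2238 and 12305 reads) and miR-18a-5p (0, 1952 and 9383) were at least 56.2-fold and 49.0-fold higher in sperm 1 than in the oocyte. miR-20a-5p had 2, 1289 and 6661 reads and miR-93-5p 0, 1051 and 3500. The exception among the measured members was miR-25-3p, with 14, 113 and 309 reads and shares of 0.253%, 0.154% and 0.111%. Of the 7 measured members, 6 were higher in sperm and 1 was neither, beside 46.4% higher in sperm over all measured features. The 6 passed through their sperm shares alone, so the count is no support.

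The X-linked testis miRNAs, a group near Fmr1 known from male germ cells, made up 0.199% (0.0993 to 0.356) of the oocyte's reads and 7.36% and 6.41% of the sperm reads. Of 37 listed members 6 had an oocyte read. Of the 12 measured, 7 were higher in sperm and 5 were neither, beside 46.4% higher in sperm over all measured features. All 12 passed through their sperm shares alone, so the count is no support. miR-743a-3p had 0, 1024 and 2248 reads and miR-465a-3p 1, 539 and 1222, whereas miR-470-5p, with 6, 62 and 154, was not measured. Over all miRNAs matched to the X chromosome alone, the share of matched reads was 1.84% in the oocyte and 9.70% and 8.33% in sperm.

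Single sperm-rich miRNAs outside these groups were led by miR-191-5p, encoded with miR-425 in the gene Dalrd3. miR-191-5p had 4, 5231 and 11051 reads and miR-425-5p 1, 2079 and 2221. Their summed share of 9.97% in sperm 1 was above the 4.77% in sperm 2, and both lay far above the 0.0904% (0.0294 to 0.211) of the oocyte. miR-669a-3p, from the large cluster in an intron of Sfmbt2, had 3, 735 and 7250 reads, also with unequal shares in sperm (1.002% and 2.60%). Of the 70 listed members of that cluster 3 were measured.

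Lists with almost no oocyte reads included the miR-29 family and the miR-10 pair. miR-29b-3p, of a family that targets collagen messages, had 2, 987 and 3571 reads and miR-29a-3p 0, 896 and 3295. miR-10a-5p and miR-10b-5p, which lie in the Hox clusters, had 0 oocyte reads against 759 and 1740, and 406 and 1348. Those of miR-10a-5p are at least 19.1-fold and 11.5-fold higher in sperm. The miR-148 and miR-152 family had 0 oocyte reads as well, against 0.387% and 0.472%.

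Some abundant miRNAs had near-equal shares of listed reads. miR-103-3p, encoded in introns of pantothenate kinase genes, had 30 reads in the oocyte and a share of 0.542% (0.366 to 0.774) against 0.957% and 0.587%. miR-26a-5p had 28, 635 and 2020 reads, 0.506% (0.337 to 0.731) against 0.865% and 0.724%. On the authors' RPM the log2 ratios of miR-103-3p and miR-26a-5p were -3.91 and -4.21, so that near-equal values hold on the scale of listed reads and not on RPM. Of the 27 features called neither, 13 had at most 3 oocyte reads, so that a 4-fold difference was hardly detectable at this depth, and 9 had 10 or more.

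Markers of other cells that each sample could hold were read from lists for epithelium, stroma, blood and follicle cells. In bulk samples, fewer cells of a type and less RNA per cell cannot be told apart. The miR-200 and miR-141 group of epithelium made up 0.0542% of the oocyte's reads (3 reads) and 1.59% and 1.82% in sperm, and the stromal and smooth muscle list 0.108%, 0.861% and 0.343%. miR-200c-3p, the leading epithelial marker in sperm, had 0, 624 and 2231 reads. The sperm libraries thus held more of both lists, and the part of epididymal cells in the sperm-rich calls was not tested.

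For the oocyte, the cumulus and granulosa cell list made up 0.235% (0.125 to 0.402) against 1.49% and 1.10% in sperm. Of its 23 members 8 had an oocyte read. They included miR-202-5p (4, 92 and 72 reads) and miR-21a-5p (2, 917 and 2899), and miR-21a-5p was called higher in sperm. The blood cell list was at 0.995% (0.750 to 1.29) of listed reads against 0.544% and 0.528% (log2 ratio 0.89, but -2.74 on the authors' RPM), of which miR-155-5p made up 96.4% in the oocyte. The red-cell miRNA miR-451a had 1, 238 and 442 reads, and without miR-155-5p the list was at 0.0362% in the oocyte. Oocyte-defining messages are not among small RNAs, so the label of the oocyte library could be set only against the male germ-cell lists, miR-34 with miR-449 at 1.28% and the X-linked miRNAs at 0.199%, both far below their sperm shares.

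The endo-siRNAs were few in the oocyte library. They had 13 reads on 6 of the 712 listed sequences, 0.235% (0.125 to 0.402), against 1909 and 1512 reads, 2.60% and 0.542%, in sperm. endo-siRNA-Sp527 accounted for 7 of the 13 oocyte reads and for 610 and 715 of the sperm reads. The sperm libraries differed here more than in the miRNAs: 711 of the 712 sequences had a read in sperm 1 and 160 in the deeper sperm 2. The sources used here do not give where the 712 sequences were drawn from, so this list may not cover endo-siRNAs of oocytes.

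miRNAs known to be made without the Microprocessor, the complex of Drosha, had 12 oocyte reads, 9 of them from miR-320-3p, which had 10 reads in sperm 1 and 11 in sperm 2. The list's share was 0.217% (0.112 to 0.379) against 0.109% and 0.0161%. The ratio was 1.99 (0.987 to 3.67) to sperm 1 and 13.4 (6.48 to 25.8) to sperm 2, and the log2 ratio to the mean was -0.90 on the authors' RPM. None of its 13 members was measured.

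The base composition of the reads was compared over the matched miRNAs. Reads beginning with U made up 80.3% in the oocyte and 58.9% and 71.0% in sperm. The oocyte value rests largely on miR-30c-5p and miR-183-5p, which both begin with U and held 52.8% of its listed reads. The mean GC content weighted by reads was 43.3% in the oocyte and 43.3% and 41.9% in sperm. Among called miRNAs with a sequence, the median GC content was 45.5% for the 22 higher in the oocyte and 40.9% for the 39 higher in sperm. A U stands first in 10 of the 22 and in 28 of the 39. The 23 miRNAs called neither also had a median GC content of 45.5%, with a U first in 9. By these measures the set higher in the oocyte was thus near the uncalled one.

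The 2PN libraries, which played no part in the choice or the calls, contain the oocyte's cytoplasm after a sperm was injected. They held 3243, 2951 and 8967 listed reads for embryos made with WT, Dicer cKO and Drosha cKO sperm, 1 library each. The 25 features called higher in the oocyte made up 78.3%, 86.3% and 85.8% of those reads, close to the 84.5% of the oocyte. The 45 called higher in sperm made up 3.82%, 1.63% and 1.90%, against 2.03% in the oocyte.

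In the WT 2PN library all 25 oocyte-rich features had a read. With embryo counts under 3 raised to 3 reads, their shares there were 0.341 to 2.37 times those of the oocyte. On this floor all 25 were within 4-fold. The raised floor was 0.0925% of listed reads in this library and 0.102% in the Dicer cKO embryo library. Features with few oocyte reads therefore could not fall 4-fold below the oocyte in these libraries, and for them the count shows little. miR-146b-5p was raised in this way and gave the lowest ratio of 0.341. Its seed, shared with miR-146a-5p, had only 2 reads in the WT 2PN library. As counted, miR-146b-5p was thus more than 4-fold below its oocyte share. In the Dicer cKO embryo library the ratios ran from 0.110 to 3.66, with 21 of the 25 within 4-fold, and in the Drosha cKO embryo library from 0.103 to 2.28, with 22 within 4-fold. The lowest ratios there also rest on raised counts, of miR-294-3p (2 reads) in the Dicer cKO embryo library and miR-5100 (0 reads) in the Drosha cKO one. miR-30c-5p made up 22.1%, 38.2% and 29.4% of the reads in the WT, Dicer cKO and Drosha cKO embryos, and miR-183-5p 20.01%, 17.9% and 27.8%. miR-122-5p was present at 3.27%, 1.42% and 3.0%. In the Dicer cKO embryo library 2 of the 25 had 0 reads, miR-290a-5p and miR-5100, and miR-5100 had 0 in the Drosha cKO embryo library as well.

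Of the sperm-rich features, 17 of the 45 had 0 reads in the WT 2PN library. miR-19b-3p, at 0.0362% in the oocyte, made up 0.432% there and 0% and 0.0112% in the other embryos, and miR-34c-5p, often discussed as a sperm-borne miRNA of the zygote, 0.0308%, 0% and 0.0112%. A single read is 0.0308% of the listed reads in the WT embryo library and 0.0112% in the Drosha cKO one. The miR-34c-5p values there, and that of miR-19b-3p in the Drosha cKO embryo, are therefore 1 read each. At 1 library each, these differences between embryos have no replicate check.

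**Figure D5:**
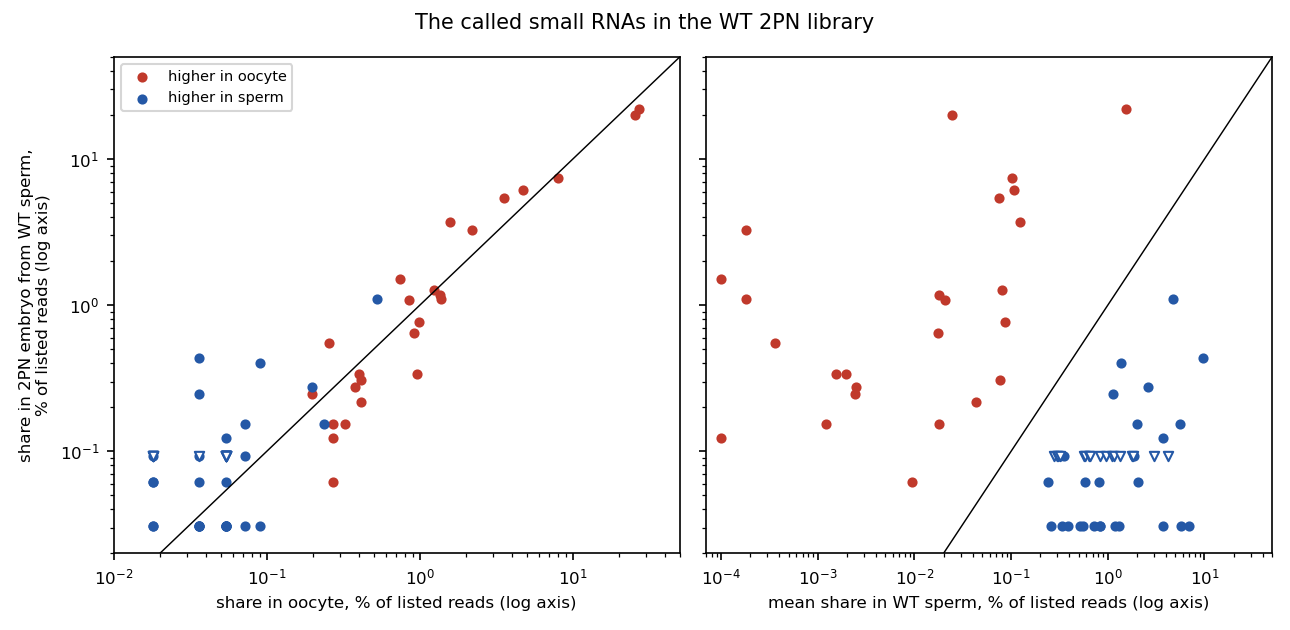
Share of listed reads in the 2PN embryo library made with WT sperm (vertical, log axis) against the share in the oocyte (left) and the mean share in the 2 WT sperm libraries (right) for the 25 features higher in the oocyte and the 45 higher in sperm. Lines mark equal shares, triangles stand for 0 embryo reads, drawn at 3 reads, and on the horizontal axes an oocyte count of 0 is drawn at 3 reads and a sperm share of 0 at 0.0001%. The oocyte-rich features lie along the line on the left and the sperm-rich features far below it on the right.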

How the data were processed

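Small RNAs were counted by the authors in 11 libraries, of which 1 oocyte and 2 WT sperm libraries were compared and 3 embryo libraries read beside them. Bowtie and mm10 are named in the submitters' processing notes. The sources used here do not give versions, mismatches, how reads were counted, or where the miRNA and endo-siRNA sequences came from. The deposited counts are raw reads per feature. The deposited RPM values equal the count divided by 1 number per library, scaled to reads per 1e+06. What that number counts the sources used here do not say.

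Shares of listed reads, exact (Clopper-Pearson) 95% intervals and exact conditional intervals of ratios of counts were computed in Python 3.11.15 with scipy 1.17.1, and TMM factors and size factors for the alternatives with edgeR 4.0.16 and DESeq2 1.42.0 in R 4.3.3. With 1 oocyte library no test was run. A fold against 0 reads is a bound at 3 reads per library, and one with 1 to 3 reads is the ratio as counted. The intervals of ratios use the counts of the 2 libraries compared.

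Named features are the 10 most abundant of each cell, the 8 largest and 8 smallest ratios among features with at least 50 reads or expected reads, and, from each of the 26 lists, its 4 most abundant members at most. All members, lists and rules were chosen with earlier results of these data known. Features outside this rule, the analyses of arms, seeds, base composition and embryos, and the sequences printed were chosen after values were seen. The calling rule as first written raised every count under 3, which gave calls from raised oocyte counts, so after the results were seen it was narrowed to raise only the lower library. The counts of 25 and 45 were the same under both.

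Mature sequences, positions and overlapping genes come from RefSeq tables on GRCm38.p6, matched by name (1333 of 1592 miRNAs, 83.7%). The genome given was of another build and was set aside. The calculations were tested on simulated data. Alternatives were 5 other scalings, each sperm library alone, other minimum counts, folds and floors, and sums by seed.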

Additional observations from a re-analysis of the deposited data

How the results depend on the processing

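A call made against both sperm libraries also holds against either alone, as long as the feature stays measured. Leaving out either sperm library could therefore lose a call only through the minimum count. All 25 and all 45 calls were kept (27 and 52 calls without sperm 1, 25 and 53 without sperm 2). The median log2 ratios were -2.28 and -2.12 beside -2.10. The median was -4.16 with TMM factors, -3.03 with DESeq2 size factors, -5.84 on the authors' RPM, -1.03 without the 5 most abundant features in the total, -3.43 with a minimum of 20 reads (59 features) and -3.35 with a floor of 1 read. On the RPM 11 features were higher in the oocyte, all among the 25, and the log2 ratios turned for the Dlk1-Dio3 cluster (-0.34), the miR-23, miR-24 and miR-27 clusters (-0.077), miR-34a-5p (-0.11) and let-7b-5p (-1.004). With no filter on 1839 features the median turned to 4.39 and 1589 features were higher in the oocyte, since oocyte counts of 0 to 2 were raised to 3. With the floor put only on the lower library, an alternative chosen after seeing the data, the count was 189. Summed by seed, 25 of 65 seeds were higher in sperm and 19 in the oocyte. With miRNA reads only, both counts were the same. At 2-fold they were 28 and 57, at 8-fold 23 and 31.

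No paired analysis was possible because the oocyte and sperm share only replicate number 1. The depth of 5530 reads limits the sperm-rich side most: a count of 0 in the oocyte is taken to allow 3 reads, a share of 0.0542%, and 37 of the 45 sperm-rich calls rest on at most 3 oocyte reads. The spread between oocyte libraries is unknown, and the sources used here give neither the number of oocytes nor the meaning of the RPM divisor, which sets the scale of every RPM ratio.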
